A study of Homo sapiens with 4 samples.

Results

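The regions described here were the distal TCF7L2 peaks inside H3K27Ac in LNCaP, an androgen-responsive human prostate cancer cell line that was grown from a lymph node metastasis. They were chosen by 3 measured properties: a TCF7L2 peak height of 23 tags or more, no overlap with a window from 1000 bp upstream to 100 bp downstream of the start of a protein-coding transcript, and at least 1 bp shared with an H3K27Ac peak. Of 20955 TCF7L2 peaks, 15908 reached 23 tags and 3377 of these, called members below, met the whole rule. A further 10089 were distal and lay outside H3K27Ac, and 2442 lay over promoters. The study joined such enhancer maps with prostate cancer risk variants. Its libraries were H3K27Ac ChIP-seq after 10 nM dihydrotestosterone (DHT, the most potent natural androgen) for 4 h, H3K27Ac ChIP-seq with vehicle (ethanol, as the study's methods give it), TCF7L2 ChIP-seq, and input DNA, which was not analysed here. Both H3K27Ac libraries came from cells at passage 20 in charcoal-stripped serum, which removes steroids, and the TCF7L2 library from cells at passage 15 in serum that was not stripped. TCF7L2 was therefore never measured under the DHT or the vehicle condition. Each condition had 1 library of 1 cell line, so no difference between DHT and vehicle has a replicate check and no p-values are given. Intervals are 95% Wilson intervals over peaks and cover counting error only, and neighbouring peaks are not independent.

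TCF7L2 is a high-mobility-group transcription factor at the end of the Wnt pathway. It recruits beta-catenin when Wnt signaling is on and Groucho/TLE corepressors when it is off. H3K27Ac, the acetylation of lysine 27 of histone H3, marks active enhancers and promoters. Distal regions that carry both a sequence-specific factor and H3K27Ac are the usual candidates for active enhancers. In luminal prostate cells such enhancers are typically opened by FOXA1, a forkhead pioneer factor. AP-1, a dimer of FOS and JUN family proteins, is a common partner at enhancers of epithelial cells.

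The cell type labels were checked against marker genes first. Of 16 luminal prostate markers, 14 had H3K27Ac over a promoter with DHT and 13 with vehicle, and 4 had a TCF7L2 peak of 23 tags or more there. Of 8 basal epithelial markers, 2 had promoter H3K27Ac with DHT and 2 with vehicle, while 4 (KRT5, KRT15, DST and LAMB3) had a promoter TCF7L2 peak. The stromal, leukocyte, endothelial, neuroendocrine and colon lists had 0 promoter TCF7L2 peaks, and the liver list had 1 over its 8 genes. Distal TCF7L2 peaks inside H3K27Ac lay within 50 kb of 5 of 16 luminal, 2 of 8 basal, 3 of 8 colon, 2 of 8 stromal, 1 of 6 endothelial, 1 of 7 neuroendocrine, 0 of 8 leukocyte and 0 of 8 liver markers, beside 19.9% of all protein-coding genes. Promoter H3K27Ac with DHT was present at 2 of 8 stromal, 1 of 8 leukocyte, 1 of 6 endothelial, 1 of 7 neuroendocrine, 0 of 8 colon and 1 of 8 liver markers. In a list of 14 housekeeping genes all 14 had it. The share of all promoters with H3K27Ac or a TCF7L2 peak is not given. These counts therefore do not rank the TCF7L2 and H3K27Ac lists by how closely they follow luminal markers. How far the marker counts bear on the results below was not tested.

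The sequences of 7 stretches of 101 bp show the kinds of site the results turn on. All are the plus strand of GRCh37 (hg19), centered on the TCF7L2 peak except for the last, which is centered on its androgen response element. Capitals mark matches on either strand to a TCF site (the forms CTTTGAA as well as CTTTGTA, likewise CTTTGTT, and the strict form CTTTGAT), an AP-1 site (TGANTCA) or a forkhead site (TGTTTAC as well as TATTTAC), and in the last stretch the androgen response element. A chromosome was left out of the printed stretches, and on the others the first 4 are the tallest peaks with, in order, a pair of CTTTGAT sites and no AP-1 site, an AP-1 site and no TCF site, an AP-1 site and a CTTTGAT site, and a forkhead site alone. The next 2 are the tallest peaks within 50 kb of the Wnt target RNF43 and of KLK3, the gene of prostate-specific antigen. The last has the largest ratio of DHT to vehicle H3K27Ac height among the peaks with such an element and 20 tags or more in both lists.
PPP3CA intron: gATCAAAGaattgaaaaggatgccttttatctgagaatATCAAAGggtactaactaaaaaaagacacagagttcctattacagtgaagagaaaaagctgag
STN1 intron: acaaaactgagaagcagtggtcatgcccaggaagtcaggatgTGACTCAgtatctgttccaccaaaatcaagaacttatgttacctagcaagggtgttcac
GULP1 intron: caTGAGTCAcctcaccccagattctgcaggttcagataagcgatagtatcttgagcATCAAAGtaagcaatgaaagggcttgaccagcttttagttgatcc
SLC12A2 intron: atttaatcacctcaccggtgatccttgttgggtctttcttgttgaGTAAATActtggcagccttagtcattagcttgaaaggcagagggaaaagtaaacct
RNF43 intron: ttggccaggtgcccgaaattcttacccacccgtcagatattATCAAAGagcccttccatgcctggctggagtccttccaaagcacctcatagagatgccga
KLK3 surroundings: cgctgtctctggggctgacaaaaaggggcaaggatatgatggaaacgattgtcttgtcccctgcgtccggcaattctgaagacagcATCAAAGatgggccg
NUP210 intron: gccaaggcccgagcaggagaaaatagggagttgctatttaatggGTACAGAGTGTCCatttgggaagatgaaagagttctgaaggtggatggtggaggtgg

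The PPP3CA stretch, chr4:102068574-102068674, lay under a TCF7L2 peak of 158 tags with H3K27Ac heights of 154 tags with DHT and 147 with vehicle. The STN1 stretch, chr10:105655449-105655549, lay under a TCF7L2 peak of 229 tags, the largest height in the list, with 25 H3K27Ac tags with DHT and 19 with vehicle. STN1 encodes a subunit of the CST complex that maintains telomeres. The GULP1 stretch, chr2:189360864-189360964, had 208 TCF7L2 tags and H3K27Ac heights of 10 tags with DHT and 14 with vehicle. The SLC12A2 stretch, chr5:127270689-127270789, had 195 TCF7L2 tags, and its H3K27Ac heights were 34 tags with DHT and 54 with vehicle. It lay in an intron of CCDC192, and SLC12A2, which encodes a sodium, potassium and chloride cotransporter, had the nearest start at 149 kb. The RNF43 stretch, chr17:56469024-56469124, had 228 TCF7L2 tags and H3K27Ac heights of 42 tags with DHT and 55 with vehicle. The stretch within 50 kb of KLK3, chr19:51308034-51308134, lay between genes under a TCF7L2 peak of 23 tags, just at the threshold, where H3K27Ac reached 119 tags with DHT and 72 with vehicle. The NUP210 stretch, chr3:13455174-13455274, lay under a TCF7L2 peak of 85 tags with 96 H3K27Ac tags with DHT and 35 with vehicle. Among these stretches the lowest TCF7L2 peak, near KLK3, had more H3K27Ac in both lists than the STN1, GULP1, SLC12A2 and RNF43 stretches.

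The first question was what the DNA under these peaks holds. An AP-1 site lay within 150 bp of the center in 49.3% of the distal peaks inside H3K27Ac (47.6% to 51.0%) and a TCF site in 42.5% (40.8% to 44.1%), each far more often than in a flank, a stretch of the same length centered 1000 bp upstream of the same centers, where the shares were 10.5% and 21.3%. The strict TCF form CTTTGAT was present in 15.0% of the centers and 4.56% of the flanks. A reordered control sequence, TTCAGTT, was present in 7.02% of the centers and 6.40% of the flanks. Over all 15908 TCF7L2 peaks of 23 tags or more, 49.7% had an AP-1 site and 43.5% a TCF site. Motif matches are descriptions of the sequence and not measured binding.

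Compared with distal peaks outside H3K27Ac, those inside had more forkhead sites and fewer AP-1 and TCF sites. A forkhead site was present in 15.7% of the peaks inside (14.5% to 17.0%), in 9.26% of those outside (8.71% to 9.84%) and in 5.04% of those over promoters. The flanks held it in 10.2% of peaks inside and in 9.93% of those outside. For TGTTTAC alone, the center held it in 9.54% inside and 5.39% outside (4.97% to 5.85%), and the flank in 5.21% inside and 4.50% outside. AP-1 was present in 49.3% inside, 58.1% outside (57.1% to 59.1%) and 15.7% over promoters. TCF sites were present in 42.5% inside, 47.5% outside (46.5% to 48.5%) and 28.2% over promoters. A TCF site and a forkhead site can share bases (CTTTGTT followed by TAC), and with such overlaps removed the forkhead shares were 15.0% inside and 8.86% outside. The longer androgen response element, an inverted repeat, was present in 25 peaks inside, 0.740% (0.502% to 1.09%), and in 41 outside, 0.406% (0.300% to 0.551%), intervals that overlap.

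Other sites were counted in the same way. Sites of grainyhead-like factors (AACCNGTT), regulators of epithelial identity, were present in 4.74% of the peaks inside (4.07% to 5.51%) and 2.44% outside (2.15% to 2.76%). Nuclear factor I sites (TTGGCA) were present in 23.7% inside (22.3% to 25.2%) and 19.5% outside (18.8% to 20.3%). GATA sites (AGATAA or TGATAA) did not separate them, at 31.5% inside and 31.7% outside. GC boxes of SP and KLF factors (GGGCGG) were present in 13.8% inside, 9.07% outside and 51.8% over promoters, and their flanks differed alike, at 8.65% inside and 5.85% outside. Of the peaks inside, 442 or 13.1% overlapped a start window of some annotated transcript of any kind, against 6.73% outside. Without these 442, and with no such removal outside, the GC-box share inside was 11.6%, the AP-1 share 51.3%, the TCF share 43.7% and the forkhead share 16.8%.

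**Figure D1:**
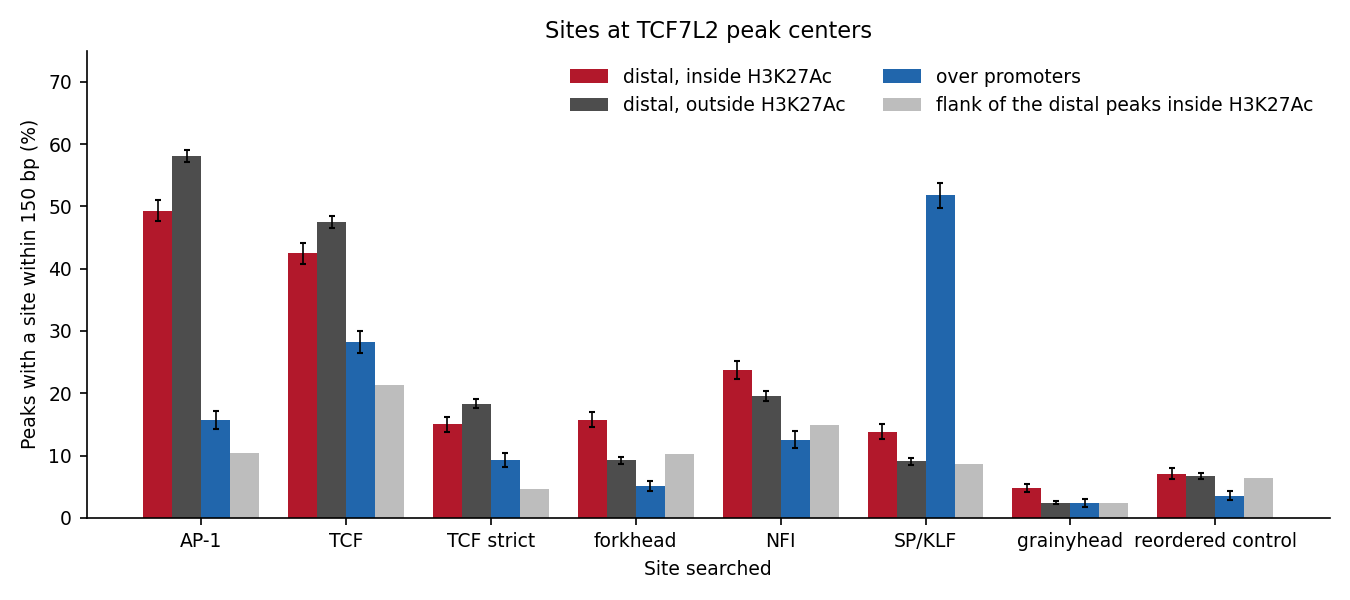
Percentage of TCF7L2 peaks with a site within 150 bp of the center, for distal peaks inside H3K27Ac (n = 3377), distal peaks outside (n = 10089), peaks over promoters (n = 2442), and the flank of the distal peaks inside, centered 1000 bp upstream. Bars start at 0 and error bars are 95% Wilson intervals. Forkhead sites stand at 15.7% inside and 9.26% outside, and AP-1 sites at 49.3% and 58.1%.

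The sites were concentrated at the very center. Within 50 bp of the center, peaks inside H3K27Ac held 2.89 AP-1 sites per kb, 8.07 times the density beyond 1000 bp, and peaks outside held 3.95 per kb, 10.5 times. TCF sites stood at 2.73 per kb inside (3.16 times) and 3.34 per kb outside (4.00 times). Forkhead sites stood at 0.643 per kb inside, 1.84 times the distant density, and at 0.329 per kb outside, 0.959 times. Grainyhead sites stood at 0.192 per kb inside (2.80 times) and 0.0833 per kb outside (1.21 times). The forkhead profile inside H3K27Ac was low and broad, whereas the AP-1 and TCF profiles were sharp in both classes.

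**Figure D2:**
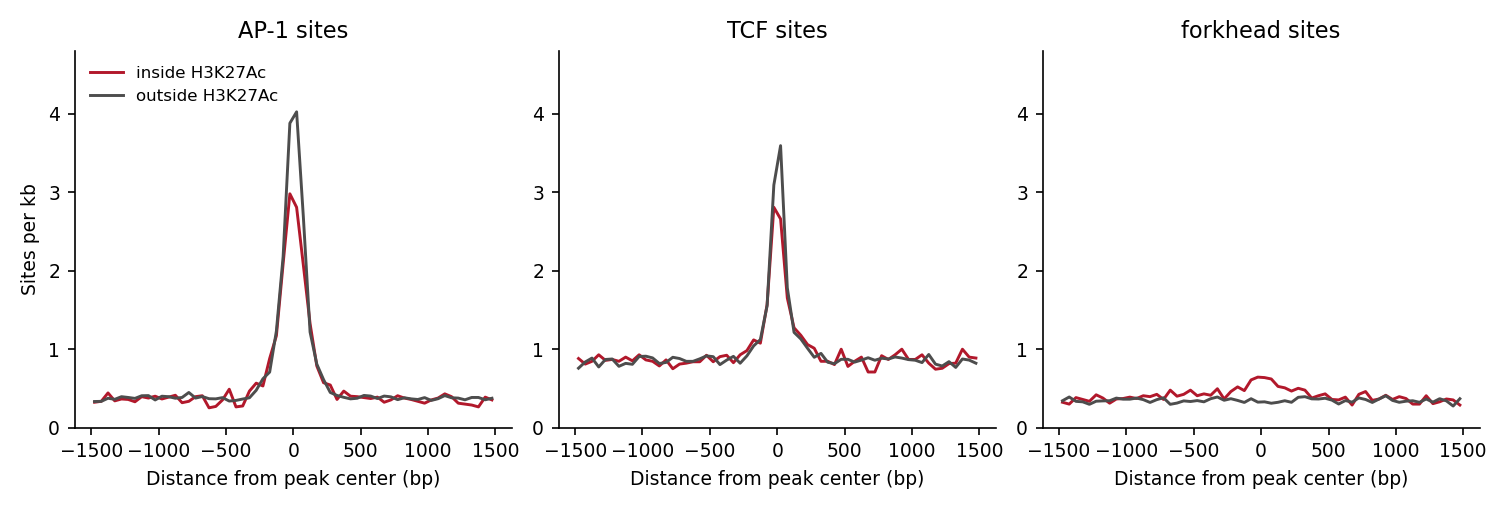
Sites per kb in bins of 50 bp against the distance from the TCF7L2 peak center, for AP-1, TCF and forkhead sites, in distal peaks inside H3K27Ac and outside it. AP-1 and TCF sites peak sharply at the center in both classes, at 2.89 and 3.95 AP-1 sites per kb within 50 bp, and forkhead sites stand at 0.643 inside against 0.329 outside.

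Read the other way, the share of distal TCF7L2 peaks that lay inside H3K27Ac depended on the sites they held. With a forkhead site 36.2% were inside (33.8% to 38.7%), and without one 23.7% (22.96% to 24.5%). With an AP-1 site 22.1% were inside (21.2% to 23.1%), and without one 28.8% (27.7% to 29.997%). With a TCF site 23.04% were inside (22.01% to 24.1%), and without one 26.8% (25.8% to 27.9%). With a grainyhead site the share was 39.4% of 406 peaks (34.8% to 44.2%), against 24.6% without. When the 3 main sites were combined, the lowest share inside was 19.2% (17.8% to 20.7%), for 2798 peaks with TCF and AP-1 sites and no forkhead site. The highest was 42.3% (37.2% to 47.7%), for 333 peaks with a forkhead site and neither of the others. Of the 2517 peaks with none of the 3, 31.4% were inside (29.6% to 33.2%), beside 32.3% (27.8% to 37.3%) with TCF and forkhead sites and no AP-1 site. Peaks with none made up 23.4% of the distal peaks inside H3K27Ac. There they had a median TCF7L2 height of 36 tags, against 57 tags for those with both TCF and AP-1 sites and no forkhead site.

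The H3K27Ac peaks that hold no TCF7L2 peak gave a second comparison for the same sites, here counted within 150 bp of the H3K27Ac center. Of distal DHT-list H3K27Ac peaks, 18.5% of the 2385 that held a distal TCF7L2 peak had a forkhead site (17.0% to 20.1%), against 26.8% of the 46649 that held none (26.4% to 27.2%). AP-1 sites went the other way, at 28.2% (26.4% to 30.1%) against 11.9% (11.6% to 12.2%). The strict TCF form was present in 7.46% (6.48% to 8.59%) against 5.04% (4.84% to 5.24%). The androgen response element was present in 0.671% (0.413% to 1.09%) against 1.23% (1.13% to 1.33%), and GATA sites in 32.0% against 39.0%. Grainyhead sites were present in 3.73% (3.04% to 4.57%) against 3.96% (3.78% to 4.14%). Nuclear factor I sites were present in 21.8% (20.2% to 23.5%) against 23.3% (22.9% to 23.7%). Both pairs of intervals overlapped. GC boxes were present in 8.72% (7.65% to 9.92%) against 3.66% (3.49% to 3.83%). In forkhead sites the acetylated TCF7L2 regions thus stood above the TCF7L2 peaks without H3K27Ac, counted around TCF7L2 centers. They stood below the H3K27Ac peaks without TCF7L2, counted around H3K27Ac centers. The 2 comparisons use different centers, and the second was not held at like width, so they do not form a single scale.

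Taller TCF7L2 peaks held a TCF site more often. Inside H3K27Ac the share was 35.8% at 23 to 29 tags (32.7% to 39.0%) and 65.6% at 160 to 229 tags (58.0% to 72.5%), and outside it was 42.9% and 58.9% in the same height classes. The strict form was present in 11.7% of the lowest class inside and in 30.6% of the highest. AP-1 sites inside H3K27Ac were present in 40.6% of the lowest class, 60.2% at 110 to 159 tags and 51.3% at 160 to 229 tags. Forkhead sites had no such gradient, with shares inside between 13.1% and 18.2% over the 6 height classes and shares outside between 8.83% and 10.6%. In each of the 6 classes the forkhead share was higher inside than outside, with overlapping intervals in the class of 160 to 229 tags. The AP-1 share was higher outside in each of the 6 classes, at 54.7% in the lowest. It was 62.0% outside at 110 to 159 tags and 57.5% at 160 to 229 tags. The AP-1 intervals overlapped at 45 to 69 tags and from 110 tags up. The TCF share was higher outside in the 5 classes below 160 tags and higher inside in the highest, and the intervals overlapped in all classes from 45 tags up. The strict form was higher inside at 45 to 69 tags, at 18.6% (15.9% to 21.6%) against 16.7% (15.1% to 18.3%) outside. Those intervals overlapped. In all other classes below 160 tags the strict form was higher outside. At 110 to 159 tags it was present in 17.5% inside (13.4% to 22.5%) and 25.1% outside (22.1% to 28.3%). In the highest class it was again higher inside, at 30.6% against 26.3% outside, with overlapping intervals.

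TCF7L2 height itself was nearly unrelated to H3K27Ac. Heights were part of the rule, so they are given as a description: the median was 43 tags inside H3K27Ac (quartiles 29 and 73), 41 tags outside (29 and 68) and 33 tags over promoters (26 and 48). The share of distal TCF7L2 peaks inside H3K27Ac was 25.1% in all (24.4% to 25.8%), 24.1% at 23 to 29 tags and 27.3% at 160 to 229 tags. Over promoters 78.7% of TCF7L2 peaks overlapped H3K27Ac (77.1% to 80.3%). H3K27Ac peaks of either list covered 152405970 bp, 5.33% of the genome without gaps. Across the members, Spearman's rho between TCF7L2 height and H3K27Ac height was -0.038 with DHT (n = 3164) and -0.016 with vehicle (n = 3118), a correlation across peaks of 2 experiments in different serum. At the threshold, 184 of 744 distal peaks of 23 tags lay inside H3K27Ac, and 160 of 729 of 22 tags, just below it. Of the members, 2984 (88.4%) were wholly covered by the H3K27Ac peaks of a list and 25 shared under 50 bp with one, while 177 distal peaks outside came within 200 bp of an H3K27Ac peak. Most peaks outside were remote from acetylation, with a median gap of 14191 bp.

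**Figure D3:**
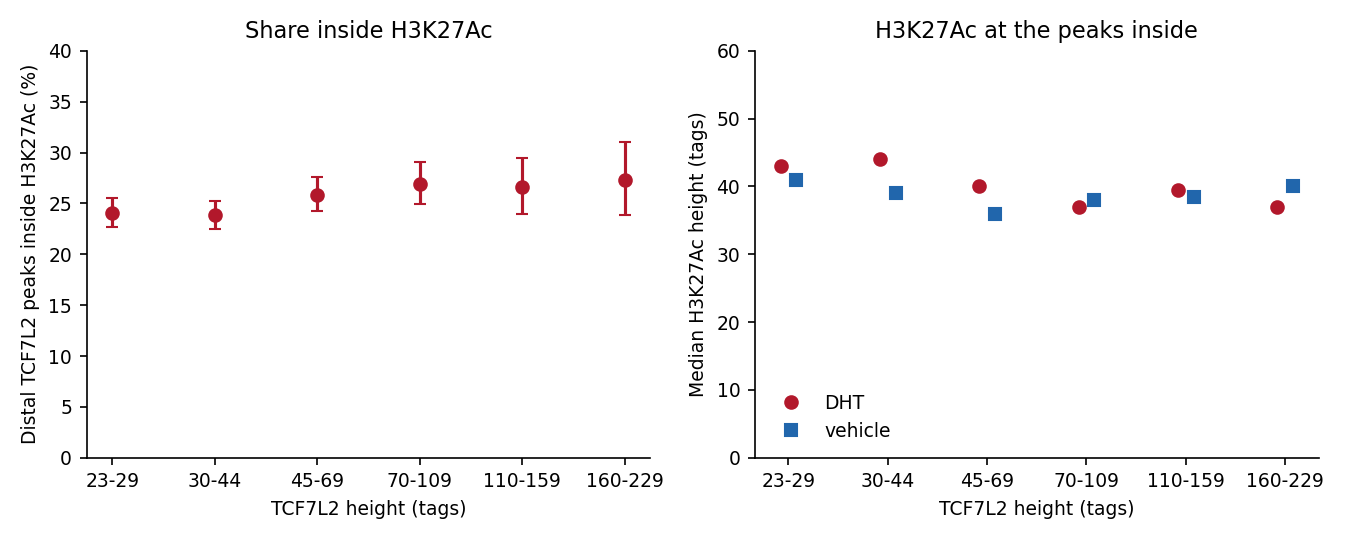
Left, percentage of distal TCF7L2 peaks inside H3K27Ac by class of TCF7L2 height, with 95% Wilson intervals. Right, median H3K27Ac height in tags with DHT and with vehicle at the peaks inside, by the same classes. The share runs only between 23.8% and 27.3%, and the median heights between 37 and 44 tags with DHT and between 36 and 41 tags with vehicle.

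Within the acetylated region, TCF7L2 sat near the middle. The center of the TCF7L2 peak fell in the middle 20% of its H3K27Ac peak for 37.2% of the 3164 members in the DHT list (35.5% to 38.9%) and for 38.0% of the 3118 in the vehicle list (36.3% to 39.7%). The outer 10% at both ends together held 6.89% with DHT and 6.16% with vehicle. The center lay a median of 839 bp from the nearer end in both lists. In H3K27Ac peaks of 2 to 4 kb the middle 20% held 44.8% of the centers with DHT (42.03% to 47.7%) and 46.5% with vehicle (43.7% to 49.3%). In peaks of 8 to 16 kb it held 20.6% with DHT (15.0% to 27.7%) and 21.5% with vehicle (15.8% to 28.6%), intervals that include 20%.

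**Figure D4:**
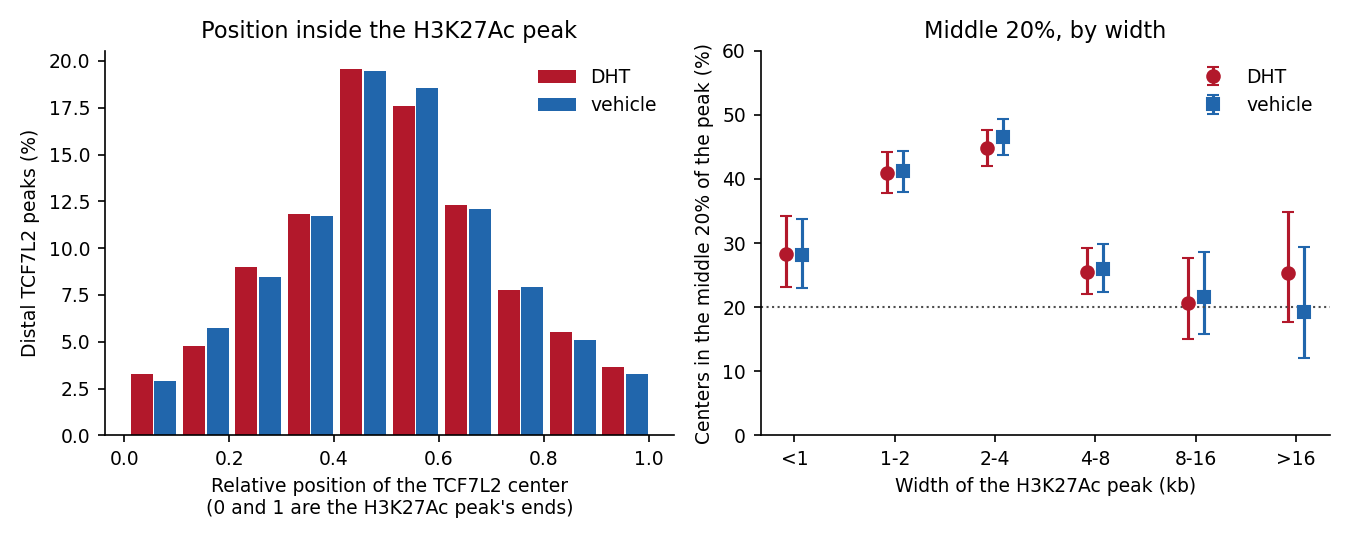
Left, percentage of distal TCF7L2 peaks by the relative position of their center in the H3K27Ac peak, with 0 and 1 its ends, for DHT and vehicle. Right, percentage of centers in the middle 20% by H3K27Ac width, with 95% Wilson intervals and a dotted line at 20%. Centers gather in the middle in H3K27Ac peaks of 1 to 4 kb, up to 44.8% with DHT and 46.5% with vehicle, and not in those of 8 to 16 kb.

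H3K27Ac peaks that held a distal TCF7L2 peak were taller than those that held none, also at like width from 2 to 8 kb. There were 2811 such peaks in the DHT list and 2783 in the vehicle list. Most (90.1% with DHT and 90.5% with vehicle) held a single one, and 426 with DHT and 398 with vehicle reached over a promoter themselves. Among distal H3K27Ac peaks of 2 to 4 kb, those with a TCF7L2 peak had a median height of 50 tags in the DHT list (95% order-statistic interval 47 to 51), and those with none 43 (43 to 44). In the vehicle list the medians were 50 (48 to 52) and 41 (41 to 42). At 4 to 8 kb the DHT medians were 91 with a TCF7L2 peak (85 to 97) and 84 without (82 to 86), and the vehicle medians 91 (86 to 95) and 80 (78 to 82). Below 1 kb the medians with and without were equal, at 11 tags in the DHT list and 10 tags in the vehicle list. Per megabase of distal H3K27Ac in the DHT list, members numbered 35.1 in peaks below 1 kb, 27.2 at 2 to 4 kb, 10.8 at 8 to 16 kb and 17.5 above 16 kb. Every member that shared at least 1 bp was counted over the H3K27Ac width alone, which raises the density most in narrow peaks.

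The next comparison asked whether 4 h of DHT changed acetylation at these regions. The great majority were acetylated under both conditions: 2905 members or 86.0% (84.8% to 87.2%) overlapped a peak of both lists. A further 259 or 7.67% (6.82% to 8.62%) overlapped a DHT peak only, and 213 or 6.31% (5.54% to 7.18%) a vehicle peak only. Where both were present, median heights were 44 tags with DHT (quartiles 23 and 81) and 43 tags with vehicle (21 and 77). Where only a single list had a peak, it was usually low, at a median of 16 tags for DHT only and 11 tags for vehicle only. The median log2 ratio of DHT to vehicle height was 0.045 (quartiles -0.16 and 0.26). Counted over H3K27Ac peaks, the median was 0.016 in distal DHT peaks with a member (0 to 0.043) and 0 in distal ones with no TCF7L2 peak (0 to 0.023), and over all DHT peaks in both lists, promoters included, it was 0.095. Height was higher with DHT at 1549 members, lower at 1208 and equal at 148. Heights were used as deposited, and no source used here says that they were scaled to the number of reads.

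Change past a fixed fold was less frequent at these regions than over all H3K27Ac peaks. Of all 50368 DHT peaks that overlapped a vehicle peak, 14.3% were at least 1.5 times taller with DHT and 7.64% at least 1.5 times lower. Of the 2221 distal ones that held a distal TCF7L2 peak, 254 or 11.4% (10.2% to 12.8%) were taller by that fold and 121 or 5.45% (4.58% to 6.47%) lower. Distal DHT peaks that held no TCF7L2 peak gave 16.7% (16.4% to 17.1%) taller and 9.66% (9.37% to 9.97%) lower. Low peaks pass a fold by counting error more easily. With 20 tags or more in both lists the shares taller with DHT were 7.89% (6.63% to 9.36%) with a TCF7L2 peak and 12.6% (12.2% to 13.1%) with none. At 2 to 4 kb of DHT width, 13.4% (11.4% to 15.7%) of 941 were taller with a TCF7L2 peak, against 25.5% (24.8% to 26.3%) of 12755 with none, and at 4 to 8 kb 13.4% (9.999% to 17.6%) against 20.6% (19.1% to 22.2%). Above 16 kb the order was the other way, at 6.25% of 16 against 1.08% of 93, with overlapping intervals. DHT width itself moved with the change in height, so these classes do not compare the change at like width. Below 1 kb of DHT width, 0% with a TCF7L2 peak and 0.289% with none were taller, and 10.8% and 18.2% were lower.

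Presence in only a single list was likewise less frequent. Of all DHT peaks 17.1% had no vehicle peak, and of all vehicle peaks 11.8% had no DHT peak. Of the DHT peaks that held a distal TCF7L2 peak, 164 of 2811 or 5.83% (5.03% to 6.76%) had no vehicle peak, and of the vehicle peaks 154 of 2783 or 5.53% (4.74% to 6.45%) had no DHT peak. At like width, 1 to 2 kb in the DHT list, 92.7% of the distal peaks with a TCF7L2 peak and 78.7% of those with none were found in the vehicle list too. At 2 to 4 kb the shares were 98.0% and 95.2%.

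**Figure D5:**
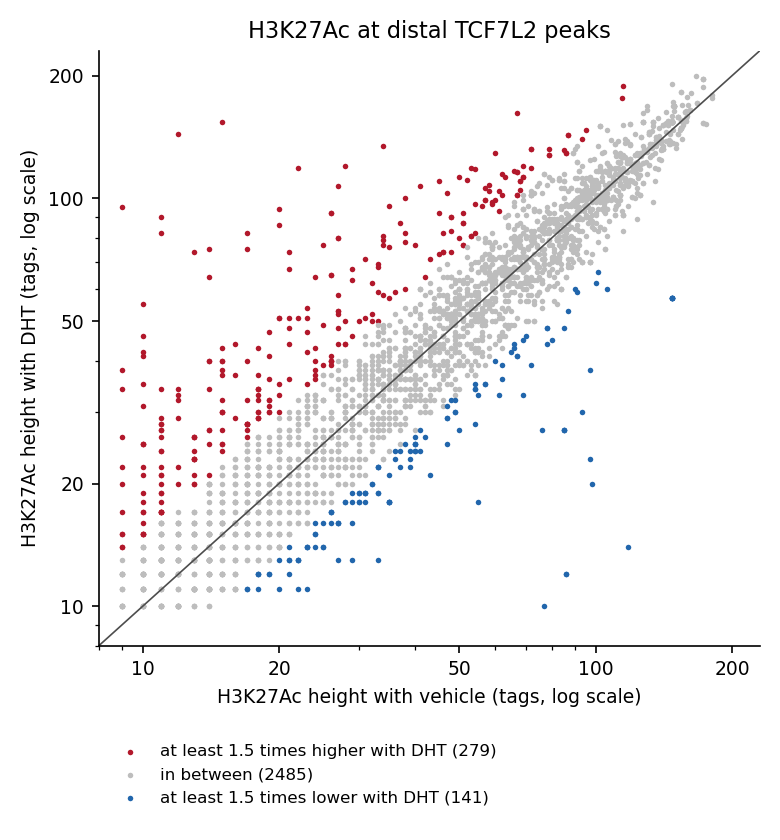
H3K27Ac height in tags with DHT against that with vehicle, on logarithmic axes, at the 2905 distal TCF7L2 peaks acetylated in both lists, where each point is a TCF7L2 peak and the line marks equal heights. At 279 the height with DHT was at least 1.5 times that with vehicle, at 141 it was at least 1.5 times lower, and 2485 lay in between.

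The androgen response element marked members with more H3K27Ac under DHT, on few peaks. Of 21 members with the element that were acetylated in both lists, 7 were at least 1.5 times taller with DHT and 0 at least 1.5 times lower, with a median log2 ratio of 0.45 (order-statistic interval 0.22 to 0.72). Among the 2884 without it, 272 or 9.43% were taller and 141 or 4.89% lower, with a median log2 ratio of 0.043 (0.027 to 0.058). The element at NUP210, which encodes a nuclear pore membrane protein, is printed above. At NUDT13 H3K27Ac had 35 tags with DHT and 10 with vehicle under a TCF7L2 peak of 130 tags. A further 4 members with the element had H3K27Ac with DHT only, among them a peak with IRS1, the insulin receptor substrate gene, as nearest start (55 tags), and 0 had it with vehicle only. Members with a forkhead site had a median log2 ratio of 0 (-0.013 to 0.072), and those with an AP-1 site 0 (0 to 0.041).

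The members with the largest ratios, chosen for that difference and are given as a description. Among members whose H3K27Ac peaks had 20 tags or more in both lists, the highest ratio was in an intron of MCPH1, nearest to the start of ANGPT2, the gene of angiopoietin 2 (119 tags with DHT, 22 with vehicle). PRDM10 (94 and 20), SHCBP1L (86 and 20), TBC1D1, a regulator of glucose transporter traffic (120 and 28), and TBCE, a tubulin chaperone gene (107 and 27), were nearest to the next. FKBP5, an androgen-induced co-chaperone of steroid receptors, followed with 134 tags with DHT and 34 with vehicle at chr6:35699820-35700299, 3699 bp from its start. A pair of members nearest to CLNK shared an H3K27Ac peak (92 and 26), and single members nearest to CLXN (74 and 21) and ZMYND8, a chromatin reader gene (67 and 21), closed the 10. The lowest ratio was near BTD, the biotinidase gene, with 23 tags with DHT and 97 with vehicle. Of the 10 lowest, 7 had PPP3CA as the nearest gene (further PPP3CA members tied with the last), and the other 2 were nearest to AZIN1 (30 and 93 tags), an inhibitor of antizyme, and ATXN7L1 (27 and 76 tags). Height is that of the whole H3K27Ac peak, and width moved with it: the DHT peak was wider than the vehicle peak at 278 of the 279 members taller with DHT by the fold and narrower at 141 of the 141 lower ones. The 7 PPP3CA members shared 2 vehicle peaks of 55559 and 194129 bp, and the DHT peaks over them were 21329 and 36239 bp wide, so those ratios compare peaks of unlike width. The same holds for BTD (1859 bp with DHT and 6209 with vehicle), AZIN1 (359 and 5819) and ATXN7L1 (2069 and 6659). Among the highest ratios, widths were 5819 and 1679 bp at ANGPT2 and 13499 and 2369 bp at FKBP5, but 4499 and 3659 bp at PRDM10.

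Among members with H3K27Ac in the DHT list only, the tallest TCF7L2 peak had 217 tags and 15 H3K27Ac tags, 108 kb from the start of TBX19, a T-box factor gene. The next were nearest to TMEM64 (206 TCF7L2 and 13 H3K27Ac tags), PRAG1 (205 and 18), MUSK, a receptor kinase of the neuromuscular junction (205 and 13), a gene with the identifier ENSG00000288706 (197 and 10), RPS6KC1 (195 and 15), FAT1, a protocadherin gene (195 and 28), NR2F1, an orphan nuclear receptor gene (192 and 10), TES (192 and 29) and LY86 (184 and 21). Of these 10, 7 had under 20 H3K27Ac tags, near the lowest height of that list (10 tags). Among all members in the DHT list only, 4 or 1.54% had an androgen response element (0.602% to 3.90%) and 50.2% a TCF site (44.1% to 56.2%), against 0.723% (0.473% to 1.10%) and 41.6% (39.8% to 43.4%) of those in both lists. In the vehicle list only, the shares were 0% (0% to 1.77%) and 44.6% (38.1% to 51.3%), intervals that overlap those of the DHT list only. Median TCF7L2 heights were 49 tags for DHT only, 43 for both lists and 40 for vehicle only.

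By position, 1973 members or 58.4% had their center in an intron of a protein-coding gene (56.8% to 60.1%), 1280 or 37.9% between genes and 124 or 3.67% in an exon. Outside H3K27Ac 48.2% were intronic (47.2% to 49.2%) and 49.2% between genes. The median distance to the nearest protein-coding start was 22090 bp inside H3K27Ac (order-statistic interval 20766 to 23266) and 38197 bp outside (37016 to 39681). Inside, 31.3% lay within 10 kb of a start and 15.5% over 100 kb away, and outside 19.9% and 25.6%. By chromosome the share of distal TCF7L2 peaks inside H3K27Ac lay between 18.4% on chromosome 21 (25 of 136 peaks, 12.8% to 25.7%) and 35.0% on chromosome 22 (75 of 214, 29.0% to 41.7%), and was 19.2% on the X chromosome.

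The tallest members spanned weak and strong acetylation. STN1 and FGF20, a fibroblast growth factor gene, were nearest to the 2 of 229 tags (exact Poisson interval of the count 200 to 261), and the FGF20 peak had 15 H3K27Ac tags with DHT and 12 with vehicle. The RNF43 peak followed with 228 tags. The MYC peak had its center in an exon of the gene, 4953 bp from the nearest start, with 224 TCF7L2 tags and 107 H3K27Ac tags with DHT and 101 with vehicle. PDP1, a phosphatase of pyruvate dehydrogenase, was nearest to a peak of 223 tags with 11 H3K27Ac tags with DHT and 16 with vehicle. REEP3 was nearest to another of 223 tags (80 and 82). ACSL5, a fatty acyl-CoA synthetase gene, was nearest to a peak of 222 tags at chr10:114091770-114093059 with 100 H3K27Ac tags with DHT and 95 with vehicle. The peak of 222 tags in an intron of VMP1, an autophagy gene, overlapped a vehicle H3K27Ac peak of 9 tags and no DHT peak. RAD23B (221 tags, with 15 and 20 H3K27Ac tags) and TGIF1, a homeobox repressor gene (219 tags, with 14 and 11), completed the 10. Of these 10 peaks 3 (MYC, REEP3 and ACSL5) had 80 or more H3K27Ac tags with DHT, and 5 (FGF20, PDP1, RAD23B, TGIF1 and VMP1) had 20 or fewer in each list that held a peak.

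The members were mostly scattered, with a few dense surroundings. PPP3CA, which encodes the catalytic subunit of calcineurin, had 33 members within 50 kb and 0 distal TCF7L2 peaks outside H3K27Ac. Their TCF7L2 heights lay between 23 and 218 tags with a median of 48, and 15 of them had an AP-1 site and 13 a TCF site. A single DHT H3K27Ac peak of 145 kb, chr4:102049530-102194279, held 19 of them, and a vehicle peak of 194 kb, chr4:101994900-102189029, held 24. Those were the most in any H3K27Ac peak of either list. Next came NSMCE2, a SUMO ligase gene (13 members and 31 distal peaks outside), RAD51B, a DNA repair gene (10 and 54), GSE1 (10 and 19), MTHFD1L, a mitochondrial folate enzyme gene (10 and 12), PRKACB, a catalytic subunit of protein kinase A (9 and 1), ACSL5 (9 and 4), VMP1 (9 and 7) and THADA (8 and 11). UBE2H and PCDH7 also had 8 members, and PCDH7 had 40 peaks outside. These genes differ in length, with RAD51B at 910 kb and ACSL5 at 54.3 kb, and longer genes offer more room.

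Gene groups were compared by how many genes had a member within 50 kb, beside 19.9% of all 20163 protein-coding genes. For distal peaks outside H3K27Ac the share of all genes was 35.4%. The lists are small and their genes differ in length, so the counts are descriptions. Wnt target genes had a member at 11 of 24 (45.8%) and a peak outside H3K27Ac at 18 of 24. MYC, a growth-promoting transcription factor gene, had 2 members (tallest 224 tags) and RNF43, which encodes a ubiquitin ligase that removes Wnt receptors, had 4 (228 tags). ZNRF3, its close relative, had 6, the tallest of 135 tags with 105 H3K27Ac tags with DHT and 68 with vehicle. SOX9, a stem and progenitor cell factor gene, had 2 (160 tags, with 16 H3K27Ac tags with DHT and 14 with vehicle). AXIN2, a feedback scaffold of beta-catenin destruction, had 1 of 49 tags (14 and 16) beside 11 peaks outside. LGR5, NKD1, DKK1 and SP5 had 0 members, and their promoters had no H3K27Ac in either list. A TCF7L2 peak lay over the promoters of NKD1, DKK1 and SP5 all the same. Distal peaks outside H3K27Ac numbered 2 at LGR5, 3 at NKD1, 3 at DKK1 and 0 at SP5.

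Factors and partners of TCF and beta-catenin had a member at 8 of 17 genes. BCL9L, a coactivator that bridges beta-catenin and Pygopus, had 4, the tallest of 140 tags, where H3K27Ac was 144 tags with DHT and 12 with vehicle. There the DHT peak was 18599 bp wide and the vehicle peak 1829 bp, and at its other 3 members the heights were 144 and 131. TCF7L2 itself had 1 (130 tags, with 16 H3K27Ac tags with DHT and 19 with vehicle) within its own gene surroundings and 7 peaks outside. CTBP2, a corepressor gene, had 6, the tallest of 122 tags with 11 H3K27Ac tags with DHT and no vehicle peak. BCL9 had 1 of 112 tags (99 and 98). TCF7L1, TCF7, CTNNB1, which encodes beta-catenin, and APC, which encodes the scaffold that targets it for destruction, had 0 members. Of these, TCF7 and CTNNB1 had a TCF7L2 peak over a promoter.

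Among the 7 gene groups, only the androgen-induced genes had more genes near members (14 of 28) than near TCF7L2 peaks outside H3K27Ac (10 of 28, 35.7%). FKBP5 had 3 members, and the tallest, of 154 tags, had 11 H3K27Ac tags with DHT and no vehicle peak. NDRG1, a stress-response gene, had 2 (113 tags, with 76 H3K27Ac tags with DHT and 59 with vehicle). ABCC4, an efflux transporter gene, had 3 (91 tags, with 38 and 33). Lower TCF7L2 peaks lay in strong acetylation at C1orf116 (29 tags, with 199 H3K27Ac tags with DHT and 166 with vehicle), at ZBTB16 (39 tags, with 189 and 115) and at LRIG1 (24 tags, with 123 and 117). KLK2, KLK4 and TMPRSS2, all strongly androgen-induced in the prostate, had 0 members within 50 kb. Androgen-repressed genes had a member at 1 of 11, BCHE (32 tags, with 54 H3K27Ac tags with DHT and 38 with vehicle). MET, a growth factor receptor gene, had 0 beside 23 peaks outside H3K27Ac.

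Luminal prostate factors had a member at 3 of 14 genes (21.4%): EHF (100 tags, with 196 H3K27Ac tags with DHT and 172 with vehicle), XBP1 (59 tags, with 30 and 37) and GRHL2 (4 members, the tallest of 40 tags with 56 and 57). FOXA1, HOXB13 and GATA2, lineage factors of these cells, had 0 members within 50 kb and 0 distal peaks outside, while the promoters of all 3 were acetylated in both lists. A TCF7L2 peak lay over the FOXA1 promoter, and none over those of HOXB13 and GATA2. Housekeeping genes had a member at 3 of 14 (21.4%), GAPDH and RPLP0 among them. Genes of the prostate cancer risk loci, a list the study chose, had a member at 23 of 56 matched genes (41.1%) and a peak outside at 33 (58.9%). The tallest lay near MYC, POU5F1B (196 tags, with 92 H3K27Ac tags with DHT and 79 with vehicle), THADA (195 tags, with 11 and 11) and JAZF1, a zinc finger gene (169 tags, with 42 tags with DHT and no vehicle peak, at chr7:28076760-28077479). MLPH (137 tags, with 128 and 122), a melanosome transport gene, had 3 members in strong acetylation. GATA2, HOXB13 and VDR, the vitamin D receptor gene, had 0 members, though VDR had a TCF7L2 peak over its promoter.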

How the data were processed

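Each library was an H3K27Ac or TCF7L2 ChIP-seq of LNCaP. The deposited value of each peak is a signal, the tag height that the authors' peak caller Sole-search gave per library on hg19, in whole tags. By the study's methods H3K27Ac reads were aligned with Bowtie 2 and TCF7L2 reads with ELAND, where the submitters' processing notes name CASAVA 1.8.2, Bowtie2 and BWA for all libraries, so the aligner is not settled. Reads per library and input peaks were not used here. The members and gene lists were chosen with earlier results of these data known.

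Peaks were overlapped by at least 1 bp, and where several H3K27Ac peaks overlapped the tallest was read. Widths are ends minus starts. The starts (78701, of 20163 protein-coding genes) were those of the GRCh37 version of GENCODE 44. Of the listed genes, LILRA3 and PECAM1 were not matched. Motifs were searched on both strands of GRCh37 without repeat masking, and printed stretches exclude chromosome 8. Named genes were the nearest to the 10 tallest members, to the 10 highest and 10 lowest ratios at 20 tags or more, and to the 10 tallest found with DHT only, then the 10 with the most members within 50 kb and, per list, up to 4 genes with the tallest members and up to 4 with none; other names were chosen after their values were seen, and some genes that the rule names are not reported here. Intervals are Wilson, binomial order-statistic or exact Poisson at 95%. Scripts ran in Python 3.11.15 with pysam 0.24.0, scipy 1.17.1, pandas 2.3.3 and numpy 2.4.6, figures were drawn with matplotlib 3.10.9, and the overlap and motif code was tested on simulated data and against bedtools 2.31.1.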

Additional observations from a re-analysis of the deposited data

How the results depend on the processing

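Of 54 alternatives over 14 results, 34 stayed within the interval of the value given (for the count of members, within 1.5 times) and 20 moved. These are mostly single counts and shares of the members, and the comparison classes were not recomputed under the alternatives. The 25000 tallest H3K27Ac peaks of each list, in place of all, gave 2213 members, 16.4% of distal TCF7L2 peaks inside, 81.7% in both lists and 8.90% in the DHT list only, by construction from fewer peaks. A promoter window of 2500 bp either side gave 23.5% inside, a median log2 ratio of 0.011, a median distance of 28528 bp and an AP-1 share of 51.6%. Asking for at least 50% of the TCF7L2 peak inside gave 23.9% inside and 39.0% in the middle 20%. A lowest height of 30 tags gave a TCF share of 44.8% and an AP-1 share of 52.4%. Searching 100 bp either side gave 35.6% for TCF, 11.6% for forkhead and 41.1% for AP-1. The strict forms gave 15.0% for TCF and 9.54% for forkhead. With 1 start per gene the median distance was 36191 bp. With 20 tags or more in both lists, 7.89% of distal DHT peaks with a member were taller by the fold and 4.48% lower. The alternatives for AP-1, position, fold, PPP3CA, widths and the starts of every transcript of protein-coding genes were chosen after seeing the data. No paired analysis was possible because each condition had 1 library. Depth per library is unknown, so DHT and vehicle heights may differ in scale, and H3K27Ac below about 20 tags lies near the lowest height of its list.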
